A study of Mus musculus with 6 samples.

Results

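Chemokines and their receptors were followed as 47 genes among the 23791 named entries of an RNA count table from mouse RM1 prostate cancer cells. A gene was included when its symbol was that of a numbered Ccl, Cxcl, Ccr, Cxcr or Ackr gene, or Cx3cl1 or Cx3cr1. The set held 16 CC ligands, 13 CXC and CX3C ligands, 15 signalling receptors and 3 atypical receptors. Genes of the family with no entry in the table, Cxcl12 among them, were not analysed here.

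The 6 libraries came from 4 groups. RM1, a prostate cancer line on a C57BL/6 background without a label, was sequenced from culture as replicates a and b. RM1536, the same line carrying eCFP, a fluorescent protein, and luc2, a luciferase, and made from pooled clones, was also sequenced from culture as replicates a and b. The bone and lung groups were 1 library each of RM1536 cells taken from the femur and the lung of the same mouse on day 16 after injection of PKH26-stained cells into the heart, and the cells kept were PKH-negative, meaning that division had thinned the dye. The labels describe sorting followed by growth in DMEM with 5% FBS to 85% flask cover, so the bone and lung values are those of cells grown again outside the animal. RM1536, bone and lung therefore share the labels and the pooling of clones, and RM1 has neither. Whether the duplicates were separate cultures is not stated in the labels, so p-values measure no more than the spread within the pairs, and that spread may be technical.

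Chemokines are small secreted proteins that steer cell migration through receptors coupled to inhibitory G proteins. CC and CXC ligands are named for the spacing of their first cysteines, Cx3cl1 is made as a membrane-tethered protein, and atypical receptors bind chemokines without the usual G-protein signal and remove them. Tumour cells can make ligands that draw in leukocytes, and they can carry receptors, of which Cxcr4 is the best known in metastasis to bone.

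Depth ran from 22763835 to 30303566 counts per library. Values are given as CPM, the count as a share of the library total scaled by a TMM factor, and these factors ran from 0.942 to 1.03. A count of 3, the limit that 0 reads allow, equals 0.0971 to 0.132 CPM, and this covers counting error only. The epithelial keratins Krt8 and Krt18 were read in every library, whereas the prostate markers Hoxb13 and Krt5 were at 0 in all 6. Of 14 leukocyte markers in the table, 5 reached 10 reads in any library. The 14 summed to 23 to 68.4 CPM over the cultures, and to 38.2 CPM for bone and 39 for lung, mostly from Cd14 and Cd68. The pan-leukocyte marker Ptprc had at most 2 reads in a library and 0 in bone and lung. Lyz2, a macrophage and neutrophil gene, had 0 reads in the 4 cultures, 61 in bone and 73 in lung. Adgre1 (4 reads in bone and 5 in lung), Spi1 (3 and 1) and Itgam (2 and 1) were also at 0 in the cultures. Ly6g went the other way, with 161 and 51 reads in RM1, 0 in RM1536 and bone, and 1 in lung. In bulk RNA, fewer cells of a type and less RNA per cell cannot be told apart.

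Of the 47 genes, 19 were detected, meaning at least 10 reads in at least 1 library, and all 19 passed the low-count filter and were tested. They were the CC ligands Ccl2, Ccl4, Ccl5, Ccl7, Ccl8, Ccl9 and Ccl25, the ligands Cxcl1, Cxcl2, Cxcl9, Cxcl10, Cxcl16 and Cx3cl1, the receptors Ccr1, Ccr10, Cxcr3, Cxcr4 and Cxcr6, and the atypical receptor Ackr3. Between 13 and 15 of them reached 10 reads in any 1 library. A further 27 genes were traces of 1 to 9 reads at most. Among these were Ccl1, Ccl3, Ccl6, Ccl11, Ccl17, Ccl20, Ccl22, Ccl28, Cxcl3, Cxcl5, Cxcl11, Cxcl13, Cxcl14, Cxcl15, Cxcl17, Ccr2, Ccr3, Ccr4, Ccr6, Ccr7, Ccr9, Cxcr2, Cxcr5, Cx3cr1, Ackr2 and Ackr4. Ccl12 had 0 reads in all 6 libraries. Most of the classical leukocyte receptors were thus not detectable beyond a few reads at this depth. Ccr2, the main receptor of Ccl2 and Ccl7, had 0 to 3 reads per library, and Cx3cr1, the receptor of Cx3cl1, had 0 to 5. The trace gene nearest to detection was Ccl6, with 9 reads in bone, 4 in lung, 1 in RM1536 b and 0 in the other 3 libraries.

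**Figure D1:**
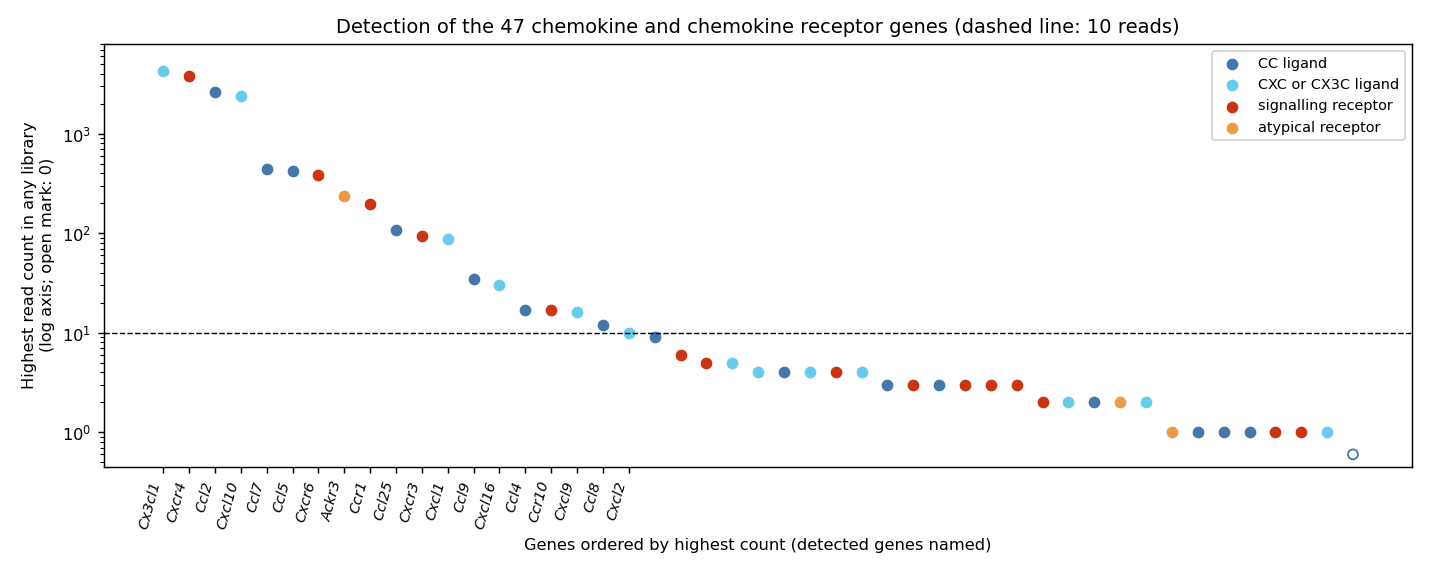
Highest read count of each of the 47 genes in any of the 6 libraries, on a log axis, coloured by role, with the detected genes named and the dashed line at 10 reads. The 19 detected genes lie on or above the line, 27 lie below it, and Ccl12 is the open mark at the far right because it had 0 reads.

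Compared per kb of exon, the order of the family differed between the groups. Ccl2, a monocyte attractant, had the highest mean level over the 6 libraries at 47.1 CPM per kb. Cxcr4 followed at 29.3, then Cx3cl1 at 21.1, Cxcl10 at 13.2, Ccl7 at 11.4 and Ccl5 at 7.08 CPM per kb. The upper ranks were held by ligands in RM1, where Cxcr4 was not among the first 5 in either library. In bone Cxcr4 came first at 92.7 CPM per kb, ahead of Ccl2 at 52.5. In lung Cxcr4 was also first, at 35.1 CPM per kb against 17.5 for Ccl2. In RM1536 a and b Ccl2 was first at 49.1 and 59.6 CPM per kb, and Cxcr4 stood at 35.9 and 8.89. Summed over the family, RM1 held 339 and 174 CPM, RM1536 held 272 and 241, bone held 349 and lung 147, so the RM1 pair spanned most of the range.

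**Figure D2:**
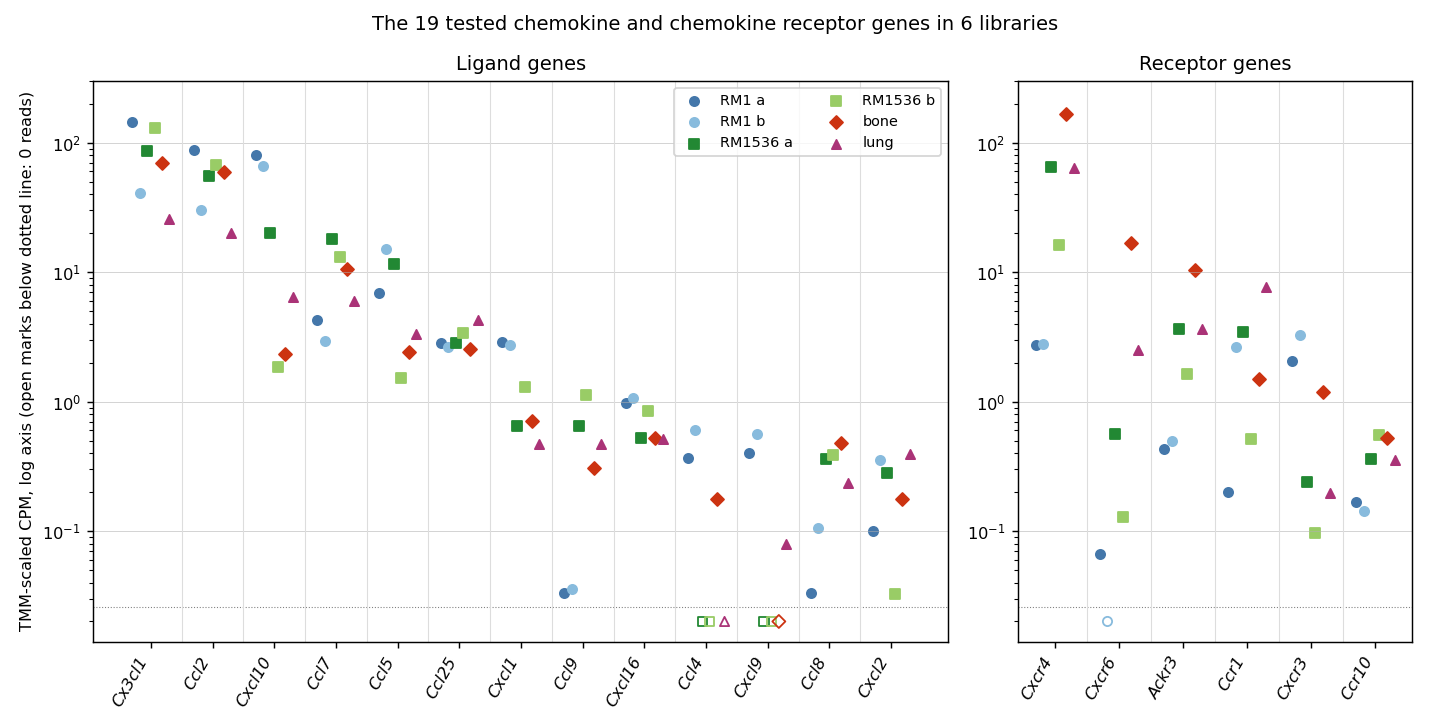
TMM-scaled CPM on a log axis of the 19 tested genes in each of the 6 libraries, ligands on the left and receptors on the right, with open marks below the dotted line for 0 reads. Cxcr4, Cxcr6 and Ackr3 are highest in the bone library, at 168, 16.8 and 10.4 CPM, and lowest in the RM1 libraries.

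The comparison of RM1536 with RM1 asks how the labelled, pooled-clone line differed from its parent before injection. Cxcr4, Ccl7 and Ccl9 rose and Cxcr3 fell. These were 4 of 19 genes (21.1%) called at an adjusted p under 0.05 by the edgeR quasi-likelihood test with Benjamini-Hochberg adjustment, where 5.64% of all 13832 tested genes were called. Over all genes 2.1% were called higher and 3.54% lower. The libraries of the 2 groups did not overlap for 13 of the 19 genes (68.4%), against 54.2% of all tested genes. The median log2 fold change was 0.18 over the 19 genes and 0.02 over all.

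Among the receptors, Cxcr4, which binds Cxcl12, had 2.74 and 2.8 CPM (RM1) against 64.9 and 16.1 (RM1536). All values in RM1536 lay above those in RM1, although the RM1536 duplicates were 4.04-fold apart. The log2 fold change was 3.87 ± 0.68 (SE, n = 2 against 2, edgeR adjusted p = 0.0339), and the call was lost without RM1 a (adjusted p = 0.0703) and with limma-voom (adjusted p = 0.0706). The value moved to 2.51 without RM1536 a and to 4.53 without RM1536 b. Cxcr4 lies on chromosome 1, at 128588199 to 128592293 on the minus strand of GRCm38.

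Cxcr3, the receptor of Cxcl9, Cxcl10 and Cxcl11, went the other way. RM1 had 2.07 and 3.29 CPM and RM1536 had 0.241 and 0.0971, which is 155 reads against 9 over the groups. Both RM1 libraries were above both RM1536 libraries. The log2 fold change was -3.99 ± 0.64 (edgeR adjusted p = 0.0276). The call was lost on leaving out RM1 b (adjusted p = 0.0544), RM1536 a (0.0596) or RM1536 b (0.115), and the value was -4.75 without RM1536 a.

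Ackr3, the atypical receptor that takes up Cxcl12, had 0.434 and 0.495 CPM (RM1) against 3.66 and 1.62 (RM1536). Its libraries were ordered as those of Cxcr4, with RM1536 a above RM1536 b and both above RM1. The log2 fold change of 2.49 ± 0.53 did not pass the edgeR test (adjusted p = 0.0538). DESeq2 called it (adjusted p = 0.00452) and limma-voom did not (adjusted p = 0.0892), and the value was 1.76 without RM1536 a. Cxcr6, the receptor of Cxcl16, rested on 2 reads from RM1 and 18 from RM1536, which gives 9.39 as the ratio, with an exact 95% counting interval of 2.25 to 83.5 (edgeR adjusted p = 0.184).

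Ccr1, a receptor of several CC ligands including Ccl5 and Ccl7, showed no separation of the groups. RM1 a had 0.2 CPM and RM1 b 2.62, whereas RM1536 a had 3.42 and RM1536 b 0.518. The duplicates differed more than the groups did, by 13.1-fold in RM1 and 6.6-fold in RM1536. Ccr10, the last of the tested receptors, ranged from 0.142 to 0.55 CPM over the 6 libraries.

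Among the CC ligands, Ccl7, a monocyte attractant, had 4.24 and 2.94 CPM (RM1) against 17.9 and 13 (RM1536). The groups did not overlap, and each pair of duplicates was less than 1.5-fold apart. The log2 fold change was 2.11 ± 0.34 (edgeR adjusted p = 0.0276). The call was lost on leaving out RM1 b (adjusted p = 0.0714), RM1536 a (0.0842) or RM1536 b (0.063). Ccl2, whose gene lies beside Ccl7 on chromosome 11, had 88.5 and 30.1 CPM (RM1) against 55.8 and 67.8 (RM1536). The RM1536 values lay between the RM1 values, so the neighbouring genes had different patterns across these libraries.

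Ccl9, a ligand of Ccr1, had 1 read in each RM1 library and 16 and 35 reads in RM1536, or 0.0334 and 0.0354 against 0.644 and 1.13 CPM. The ratio over the groups was 26.6, with an exact 95% counting interval of 7 to 226. The gene was called (log2 fold change 4.52 ± 0.82, edgeR adjusted p = 0.0372), but not when any 1 of RM1 a, RM1 b, RM1536 a or RM1536 b was left out, with adjusted p from 0.064 to 0.146. Ccl8 gave 4 reads over RM1 and 21 over RM1536 (log2 fold change 2.37 ± 0.84, edgeR adjusted p = 0.17). Ccl4 gave 28 reads over RM1 and 0 over RM1536 (edgeR adjusted p = 0.0693, limma-voom adjusted p = 0.0329). That is at least 8.94-fold lower against a floor of 3 counts over the group, with the 28 reads taken as exact. Ccl4 passed the low-count filter only through RM1, the group where it was higher, so its p-values are not independent of that choice. Ccl5, a T-cell and monocyte attractant, had 6.91 and 15.1 CPM (RM1) against 11.5 and 1.52 (RM1536). Its groups overlapped, and the RM1536 duplicates were 7.57-fold apart. Ccl25, known from thymus and gut, ranged from 2.55 to 4.3 CPM over the 6 libraries, and 2.7% of its exon bases are shared with Elavl1 on the opposite strand.

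Among the CXC and CX3C ligands edgeR called none, and limma-voom called Cxcl9 (adjusted p = 0.0307). DESeq2 also called none of them, but it gave no adjusted p for Cxcl9. Cxcl10, an interferon-inducible ligand of Cxcr3, had 80.9 and 66.6 CPM (RM1) against 20.2 (RM1536 a) and 1.84 (RM1536 b). Both RM1536 libraries were below both RM1 libraries, and they were 11-fold apart from each other. The log2 fold change was -2.75 ± 0.96 (edgeR adjusted p = 0.165), and it was -5.35 without RM1536 a (adjusted p = 0.0171) and -1.89 without RM1536 b (adjusted p = 0.0611). Cxcl9, which shares the receptor, gave 28 reads over RM1 and 0 over RM1536 (edgeR adjusted p = 0.0673). That is at least 8.94-fold lower against the floor of 3 counts, with the 28 reads taken as exact. Cxcl9 also passed the low-count filter only through RM1, where it was higher, so the same limit holds for its p-values. The summed level of 12 type I interferon response genes, listed because they move with some chemokine genes, was also lower in RM1536 than in RM1. RM1 had 2130 and 3290 CPM of them, RM1536 454 and 77.5, bone 68.6 and lung 187. Within RM1 the sum was higher in b, whereas Cxcl10 was higher in a. The part of the interferon response in the Cxcl10 and Cxcl9 values was not tested. Cx3cl1 had 144 and 40.8 CPM (RM1) against 87 and 130 (RM1536), with overlapping groups. Cxcl1, a neutrophil attractant, ranged from 0.474 to 2.91 CPM and Cxcl2 from 0.0324 to 0.395. Cxcl16, the ligand of Cxcr6, ranged from 0.513 to 1.06 CPM, and 18.3% of its exon bases lie in Zmynd15 on the opposite strand, which had 1 to 17 reads. The strand setting of the counting is not given in the sources used here, so reads of such overlapping genes cannot be told apart.

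**Figure D3:**
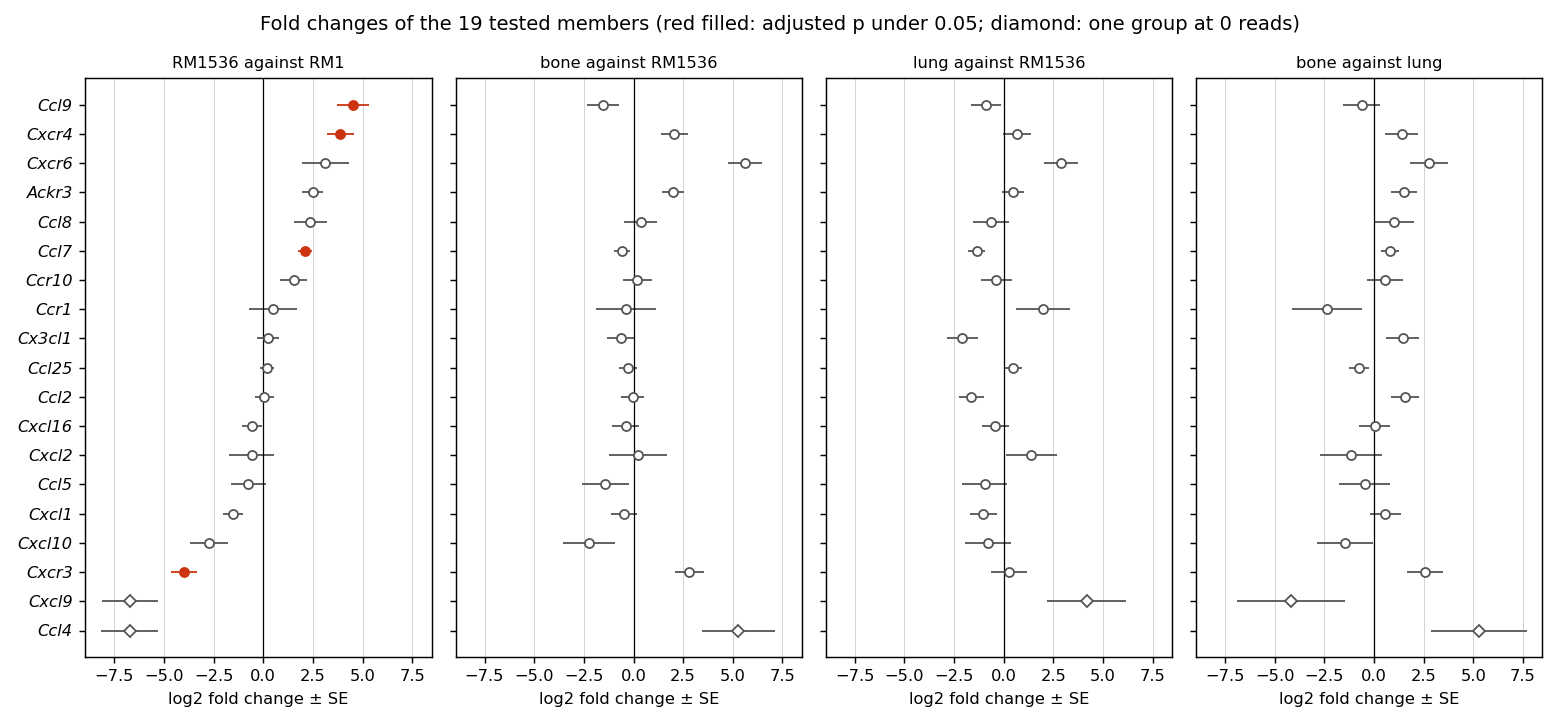
Log2 fold changes ± SE from the edgeR fit for the 19 tested genes in the 4 comparisons, with red filled points for an adjusted p under 0.05 and diamonds where a group had 0 reads, whose position depends on the prior count. Ccl9, Cxcr4, Ccl7 and Cxcr3 are filled in RM1536 against RM1, and no gene is filled in the other 3 panels.

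The promoter letters of some of these genes are shown because chemokine genes are textbook targets of interferon and NF-kappaB factors. RefSeq windows of GRCm38.p6, from 250 bases before to 50 after the start, matched 34 of the 47 genes. Both strands were searched for 3 motifs: an ISRE-like motif (GAAA, 2 of any base, GAAA), a kappaB-like motif (GGGA, 4 of any base, CC) and an AP-1-like motif (TGANTCA). The windows printed were chosen after the values were seen, and a match is a run of letters, not a shown binding site. Cxcl10 held all 3 motifs, the ISRE-like one starting 213 bases before the start and the kappaB-like ones 159 and 103 before it. Capitals mark the matches in all lines.
Cxcl10, chr5:92348890-92349139, minus strand: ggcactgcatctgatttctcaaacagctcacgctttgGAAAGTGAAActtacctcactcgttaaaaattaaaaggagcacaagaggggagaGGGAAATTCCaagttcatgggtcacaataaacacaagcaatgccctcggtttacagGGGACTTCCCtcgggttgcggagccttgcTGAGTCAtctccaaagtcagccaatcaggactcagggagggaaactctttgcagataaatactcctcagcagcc
Cxcl1, chr5:90891145-90891204, plus strand: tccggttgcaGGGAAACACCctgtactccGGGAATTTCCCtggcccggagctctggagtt
Cxcl2, chr5:90903799-90903858, plus strand: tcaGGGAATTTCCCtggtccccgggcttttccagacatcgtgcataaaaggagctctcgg
Cxcl3, chr5:90786001-90786060, plus strand: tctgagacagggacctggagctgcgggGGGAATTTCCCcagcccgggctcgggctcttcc
Ccl9, chr11:83578637-83578736, minus strand: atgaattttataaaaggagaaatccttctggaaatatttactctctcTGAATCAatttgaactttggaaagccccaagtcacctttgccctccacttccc
Cxcr4, chr1:128592300-128592549, minus strand: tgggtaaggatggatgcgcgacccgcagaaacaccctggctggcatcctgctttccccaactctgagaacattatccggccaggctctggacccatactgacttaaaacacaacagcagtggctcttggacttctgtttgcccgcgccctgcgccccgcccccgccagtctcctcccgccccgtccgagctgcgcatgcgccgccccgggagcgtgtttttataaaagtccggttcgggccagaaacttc

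The ISRE-like motif was in 3.44% of all 32851 windows and in 2 of the 34 family genes, Cxcl10 and Cxcl14. Shares of all windows are per window, whereas family counts are of genes with a match in any of their windows. The kappaB-like motif was in 20.7% of all windows and in 14 of the 34 genes. The neutrophil-attractant genes Cxcl1, Cxcl2 and Cxcl3 held the same run GGGAATTTCCC, 71, 97 and 73 bases before their starts, yet their levels were low, with Cxcl3 a trace of at most 4 reads. The AP-1-like motif was in 7.81% of all windows and in 6 of the 34 genes, among them Ccl9. The Cxcr4 window held none of the 3 motifs in these letters and has no capitals.

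The comparison of bone with RM1536 asks how cells recovered from the femur differed from the injected line. It shares the RM1536 libraries with the comparison above and with that of lung. None of the 19 genes was called by edgeR, where 0.0145% of all genes were. At an unadjusted p under 0.05 there were 5 of 19 (26.3%), all higher in bone, against 9.92% of all genes. These were Cxcr6, Cxcr3, Ackr3, Cxcr4 and Ccl4, of which 4 were receptors. Of the 19 tested genes, 5 were signalling receptors and 1 was an atypical receptor. DESeq2 called 1 of the 19 and limma-voom 0. Bone has no replicate, and its spread was taken to be that of the culture duplicates.

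Cxcr6 was highest in bone, at 16.8 CPM or 383 reads, against 0.563 and 0.129 CPM in RM1536 a and b. Lung lay between them at 2.49 CPM, and RM1 was at 0.0668 and 0. The log2 difference of bone from RM1536 was 5.63 ± 0.85 (edgeR adjusted p = 0.0897). It passed with DESeq2 (adjusted p = 1.82e-06) and in edgeR without RM1 b (adjusted p = 0.0269). The value was 6.98 without RM1536 a and 4.89 without RM1536 b. Cxcr6 lies on chromosome 9 within Fyco1, which is on the opposite strand and shares none of its exon bases. Fyco1 had 704 to 1198 reads per library, with 787 in bone, and did not follow Cxcr6.

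Cxcr4 stood at 168 CPM in bone, above the 64.9 and 16.1 of RM1536. The log2 difference was 2.05 ± 0.69 (edgeR adjusted p = 0.392), with 3.39 without RM1536 a and 1.37 without RM1536 b. Ackr3 stood at 10.4 CPM, above the 3.66 and 1.62 of RM1536, with a log2 difference of 1.98 ± 0.55 (edgeR adjusted p = 0.295). Bone was thus the highest of the 6 libraries for Cxcr4, Cxcr6 and Ackr3. Cxcr3 stood at 1.19 CPM in bone, above RM1536 but below both RM1 libraries, and its log2 difference from RM1536 was 2.81 ± 0.73 (edgeR adjusted p = 0.265), or 3.56 without RM1536 a. Ccl4 had 4 reads in bone and 0 in RM1536, too few for a fold (edgeR adjusted p = 0.452).

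Ccl2 stood at 59.7 CPM in bone, between the RM1536 values. Ccl7 stood at 10.5 CPM and Cx3cl1 at 70.1, each below both RM1536 libraries. Ccl9 at 0.307 CPM was also below both, though above both RM1 libraries. Ccl5 at 2.41 and Ccr1 at 1.49 CPM lay between the RM1536 duplicates. Cxcl10 stood at 2.33 CPM, near RM1536 b and far below RM1536 a. Its log2 difference of -2.24 ± 1.30 (edgeR adjusted p = 0.671) turned to 0.34 without RM1536 a. Of markers of other cells, Lyz2 was read in bone (61 reads) and lung (73 reads) and in neither culture group. Of 7 endothelial markers measured, 5 reached 10 reads in any library, and the 7 summed to 9.26 CPM in bone and 9.27 in lung, against 4.71 and 2.17 in RM1536 and 1.84 and 3.75 in RM1. Tie1 had 6.67 CPM in bone, against 3.14 and 1.46 in RM1536 and 3.2 in lung. Pecam1 had 1.27 CPM in bone and 0.987 in lung, against 0.362 and 0.356 in RM1536. Vwf had 1.23 CPM in bone and 4.89 in lung, against 0.724 and 0.129 in RM1536. Tek had 2 reads in bone. Cdh5 and Kdr were at 0 reads in bone, as was Ptprc, and Emcn was at 0 in every library. The part of these markers in the receptor values was not tested.

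The comparison of lung with RM1536 asks the same of cells recovered from the lung. None of the 19 genes was called by edgeR, and neither was any other gene (0%). DESeq2 and limma-voom called 0 of the 19. At an unadjusted p under 0.05 there were 4 of 19 (21.1%), against 13.8% of all genes. Cxcr6 was higher in lung, and the ligands Cx3cl1, Ccl2 and Ccl7 were lower.

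Cxcr6 stood at 2.49 CPM in lung, or 63 reads, above both RM1536 libraries (log2 difference 2.87 ± 0.85, edgeR adjusted p = 0.319). It was 4.25 without RM1536 a and 2.15 without RM1536 b. Cx3cl1 stood at 25.6 CPM in lung, the lowest of the 6 libraries, with a log2 difference from RM1536 of -2.08 ± 0.77 (edgeR adjusted p = 0.342). Ccl2 was also lowest in lung, at 20 CPM, with a log2 difference of -1.63 ± 0.64 (edgeR adjusted p = 0.357). Ccl7 at 6 CPM was below both RM1536 libraries and above both RM1 libraries (log2 difference -1.37 ± 0.42, edgeR adjusted p = 0.323). Cxcr4 at 63.5 CPM and Ackr3 at 3.63 lay within the RM1536 range, close to RM1536 a. Ccr1 was highest in lung, at 7.7 CPM. Ccl5 at 3.35, Cxcr3 at 0.197 and Cxcl10 at 6.39 CPM lay between the RM1536 duplicates, and Ccl9 at 0.474 CPM was below both. Cxcl9 had 2 reads in lung and 0 in RM1536 and bone, too few for a fold. Marrow stroma and fibroblast markers, mostly Kitl, summed to 335 CPM in lung and 251 in bone, against 206 and 231 in RM1536. Osteoblast markers summed to 71 and 79.5, against 51.4 and 58.9. Lung epithelium markers summed to 5.49 and 9.09, against 3.54 and 2.36. Col1a1, outside these lists and singled out after its values were seen, had 604 CPM in lung. It had 0.79 in bone and 8.85 and 27.8 in RM1536. The part of these genes in the lung values was not tested.

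Bone and lung were compared directly as 1 library against 1. None of the 19 genes was called by edgeR, where 0.00723% of all genes were, and DESeq2 and limma-voom called 0. At an unadjusted p under 0.05 there were 2 of 19 (10.5%), against 8.47% of all genes. Cxcr6 was 16.8 CPM in bone and 2.49 in lung, a log2 difference of 2.76 ± 0.95 (edgeR adjusted p = 0.54). Cxcr3 was 1.19 and 0.197 CPM, or 27 and 5 reads, a log2 difference of 2.56 ± 0.90 (edgeR adjusted p = 0.541). Ccr1 went the other way, at 1.49 CPM in bone and 7.7 in lung, with a log2 difference of -2.36 ± 1.74 (edgeR adjusted p = 0.722). Ccl4 had 4 reads in bone and 0 in lung, too few for a fold (edgeR adjusted p = 0.609). Cxcr4 was 168 and 63.5 CPM, a log2 difference of 1.40 ± 0.84 (edgeR adjusted p = 0.67). These differences had no replicate at either site, and the part of other cells in them was not tested.

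The share of genes at least 2-fold apart between duplicates was larger in this family than over all genes, without matching for level. Among genes with at least 1 CPM in either library, 4 of 11 family members (36.4%) were at least 2-fold apart in RM1, against 7.93% of all. In RM1536 they were 6 of 11 (54.5%), against 8.45% of all. Cx3cl1 was 3.54-fold and Ccl2 2.94-fold higher in RM1 a than in RM1 b, and both were lower in RM1536 a than in RM1536 b. Ccr1 and Ccl5 had the opposite order, lower in RM1 a than in RM1 b and higher in RM1536 a than in RM1536 b. Cxcr4 and Cxcl10 differed by 1.02-fold and 1.21-fold in RM1, but by 4.04-fold and 11-fold in RM1536.

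**Figure D4:**
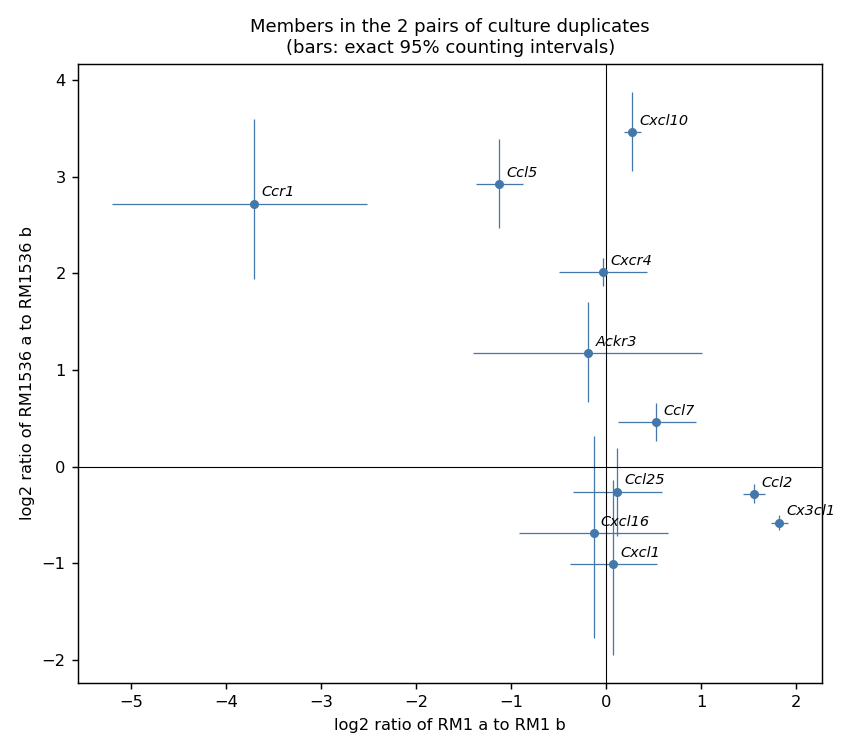
Log2 ratio of replicate a to b in RM1 (horizontal) and in RM1536 (vertical) for the 11 genes with at least 10 reads in a library of each pair, with exact 95% counting intervals. Ccr1 and Ccl5 lie at the upper left, Ccl2 and Cx3cl1 at the lower right, and Cxcl10 and Cxcr4 high on the vertical axis only.

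Other genes of chemokine signalling were read from 4 lists. Of chemokine genes named outside the numbered families, 7 were tested and 0 were called in RM1536 against RM1. Mif, a cytokine that can bind Cxcr4, was the most abundant of them at 279 to 475 CPM. Of 21 tested genes for receptor coupling and desensitisation 0 were called, and the G-protein subunit Gnb1 ranged from 642 to 709 CPM. Of 17 tested genes for processing and binding of chemokines outside the cell, 4 rose and 1 fell, where 2.1% of all genes were called higher and 3.54% lower. Mmp2, a protease that can cleave Ccl7 and Cxcl12, rose by 1.93 ± 0.24 on the log2 scale (edgeR adjusted p = 0.0162), the matrix proteoglycan Bgn by 3.01 ± 0.45 (adjusted p = 0.0238) and the cell-surface proteoglycan Sdc2 by 1.13 ± 0.20 (adjusted p = 0.0359). The others, named after their values were seen, were Ext1, which rose, and Sdc4, which fell. Of 45 tested inducers and regulators of chemokine transcription, 0 rose and 4 fell, against the same 2.1% and 3.54% of all genes. Zfp36, which promotes decay of cytokine mRNAs, fell by 3.06 ± 0.30 on the log2 scale (edgeR adjusted p = 0.00966), the RNA sensor Tlr3 by 2.55 ± 0.50 (adjusted p = 0.0441) and its adaptor Ticam1 by 1.5 ± 0.29 (adjusted p = 0.0451). None of the genes of the 4 lists was called by edgeR in the other 3 comparisons.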

How the data were processed

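RNA was measured in 6 libraries. The values are the authors' deposited gene counts, not normalized. TopHat2 2.1.10, HTSeq, edgeR and the build GRCm38 are listed, with no stated order, per the submitters' processing notes. Neither strand setting nor annotation release is given in the sources used here. A row without a gene name, holding 0.00626% to 0.0083% of the counts, was dropped. The test used edgeR 4.0.16 under R 4.3.3, with filterByExpr by group (13832 genes kept), TMM scaling, and a quasi-likelihood fit and test on all 6 libraries and 4 groups, with Benjamini-Hochberg adjustment over all tested genes and a call at 0.05. Bone and lung had 1 library each and borrowed the spread of the duplicates (2 residual degrees of freedom). Because the smallest group had 1 library, a gene could pass the filter through 1 library. SE is the log2 fold change over the square root of F. Positions, exon lengths and overlaps came from GENCODE M21. The fit was tested on simulated data. Counting intervals are exact 95% intervals and cover counting error only.

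Members and lists were chosen with earlier results of these data known. Every library's value was given for tested members called in any comparison or at a CPM of at least 5 in any library. Fold changes were given for members called or with a log2 size of at least 2, and others by range. Of each list, at most 3 called genes and the most abundant gene were to be given. Values beyond this rule were added after they were seen. The duplicates were not counted as 1 sample, since their counts differed by more than counting error (chi-square per degree of freedom 97.4 in RM1 and 98.6 in RM1536). Alternatives were DESeq2 1.42.0, limma-voom (limma 3.58.1), other scalings and filters, a replicate block and leaving out each culture library. A few genes are not reported here.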

Additional observations from a re-analysis of the deposited data

How the results depend on the processing

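The 4 calls in RM1536 against RM1 kept their direction under the alternatives run, except that Ccl9 was not tested under the stricter filter. Leaving out 1 culture library gave 1 to 2 family calls in RM1536 against RM1, 0 to 1 in bone against RM1536 and 0 in both others. Over all genes these ranges were 196 to 513, 0 to 128, 0 to 7 (lung against RM1536) and 1 to 32 (bone against lung). Without the low-count filter the family calls were 10, 5, 4 and 6, in the order RM1536 against RM1, bone and then lung against RM1536, and the pair of sites, and all genes called were 2394, 859, 1299 and 754. The cause was not tested. With DESeq2 the genes called were 1471, 379, 351 and 218 in that order, and 1 family member, Cxcr6, was called in bone against RM1536. Limma-voom called 0 genes in bone against RM1536 and 0 in bone against lung. In bone against lung, library totals alone and the stricter filter each gave 0 genes.

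With the letters a and b as a replicate block, 0 family members and 250 genes were called in RM1536 against RM1, and 0 genes in bone against RM1536 and in bone against lung. The labels do not say that the letters link the 2 pairs. The a minus b differences of the 2 pairs had a correlation of -0.464 over genes, so they tended to run in opposite directions. A crossed replicate block, chosen after seeing the data, called 11, 5, 6 and 4 family members and 3318, 1167, 2696 and 934 genes.

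Of single values, 1 reversed: Cxcl10 in bone against RM1536 was 0.34 without RM1536 a and -3.12 without RM1536 b. Scaling by library totals moved the median log2 difference of lung from RM1536 by -0.117. A minimum of 3 reads gave 34 detected members, and a longer ISRE-like motif left 1 match. Members under about 10 reads are limited by depth, and bone and lung by the lack of a replicate.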

Other observations

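Xcr1, the receptor of Xcl1, is outside the numbered families and lies beside Fyco1 and Cxcr6 on chromosome 9, at 123852315 to 123862029 in GRCm38. RM1 had 5 and 4 reads, RM1536 had 3 and 1, bone had 40 and lung 11, the same order of bone, lung and RM1536 as for Cxcr6. The log2 difference of bone from RM1536 was 4.50 ± 0.85 (edgeR adjusted p = 0.152). Ccr9, on the other side of Cxcr6, had 1 read in bone and 1 in lung and 0 in the cultures. Ccr1, beyond Xcr1 on the same chromosome, had the opposite order of the sites, with 34 reads in bone and 195 in lung. Xcr1 was singled out after its values were seen.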
